A study of Mus musculus with 3 samples.

Results

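The 10 genes described here encode the estrogen-related receptors and the factors that work with them to build mitochondria: the receptors Esrra, Esrrb and Esrrg, the coactivators Ppargc1a and Ppargc1b, the corepressor Nrip1, the nuclear activators Nrf1 and Gabpa, and the mitochondrial factors Tfam and Tfb2m. Peaks were assigned to a gene when the peak midpoint lay within 30 kb of any of its annotated transcript start sites. By this rule 6 of the 1639 ESRRA peaks in the list were near 3 of the 10 genes, and the other 7 genes were kept as genes without a peak. The data came from ESRRA ChIP-seq on villus cells of the duodenal epithelium of adult wild-type (WT) mice, in 2 libraries from ESRRA immunoprecipitation and 1 of input chromatin. The study's methods give these mice as C57BL/6 on regular chow. The 2 ChIP libraries were merged by the authors before peaks were called, so 1 list of positions was available and no value below has a replicate error. Every peak was 601 bp wide and carried no height or score, so each counted the same and depth per library could not be read from the list. No group lacking ESRRA was compared, and the cells came from the EDTA-released villus fraction, which can hold other cell types of the villus.

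Estrogen-related receptors are orphan nuclear receptors that bind DNA without estrogen, at an extended half-site written TCAAGGTCA, whose core is AAGGTCA. They depend on the coactivators encoded by Ppargc1a and Ppargc1b, while Nrip1 encodes the corepressor RIP140. Together with NRF1 and GABPA, which act on nuclear genes for mitochondrial proteins, they control respiration, and Tfam and Tfb2m encode the factors that package and transcribe mitochondrial DNA. ESRRA is known to act on its own gene, and the promoter of human ESRRA is known for a repeated element that ESRRA binds.

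The sequences below are those that carry the half-sites of the peaks near these genes, and they are shown because the half-site is what a reader would look for under an ESRRA peak. Each is 120 bases of mm9 sequence read 5′ to 3′ on the strand of the named gene, with the 7 letters of the core in capitals. Where the half-site lies on the opposite strand the capitals read TGACCTT. The Esrra promoter window is chr19:6996784-6996903 (minus strand), the Esrra intron window chr19:6994174-6994293 (minus), the Fkbp2 window chr19:7055251-7055370 (minus), the Nrip1 intron window chr16:76354581-76354700 (minus) and the Gabpa promoter window chr16:84834697-84834816 (plus).
Esrra promoter: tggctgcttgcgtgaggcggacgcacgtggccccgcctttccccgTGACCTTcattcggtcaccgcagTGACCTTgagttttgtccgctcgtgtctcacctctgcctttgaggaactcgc
Esrra intron: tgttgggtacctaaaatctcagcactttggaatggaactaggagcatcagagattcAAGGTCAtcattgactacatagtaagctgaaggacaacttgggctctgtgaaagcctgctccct
Upstream of Fkbp2: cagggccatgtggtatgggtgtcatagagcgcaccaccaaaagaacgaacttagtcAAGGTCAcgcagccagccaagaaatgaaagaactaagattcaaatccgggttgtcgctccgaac
Nrip1 intron: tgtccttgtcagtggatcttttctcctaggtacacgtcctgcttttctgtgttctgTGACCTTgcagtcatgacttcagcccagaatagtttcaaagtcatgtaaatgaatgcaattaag
Gabpa promoter: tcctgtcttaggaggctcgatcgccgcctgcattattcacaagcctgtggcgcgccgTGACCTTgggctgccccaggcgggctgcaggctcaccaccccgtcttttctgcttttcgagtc
The Nrip1 peak held a second core outside that window, on the gene's strand, printed here with 10 bases on each side.
Nrip1 intron, other core: tctcatgaggAAGGTCAgaataaggtt

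Esrra had 4 peaks, and Nrip1 and Gabpa had 1 each. Across all 22367 protein-coding genes on the 21 chromosomes, 1956 had a peak within 30 kb of a start site, which is 8.75% (95% Wilson interval 8.38 to 9.12%, covering counting error only). Among the 10 genes, 3 had such a peak. Within 1 kb of a start site the count was 2 of the 10, Esrra and Gabpa, where the background was 465 genes or 2.08%. A peak holding the extended half-site was found for Esrra alone among the 10, where 1.94% of genes had one. The 10 genes were chosen with results of these data known, and no test was run on their number.

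**Figure D1:**
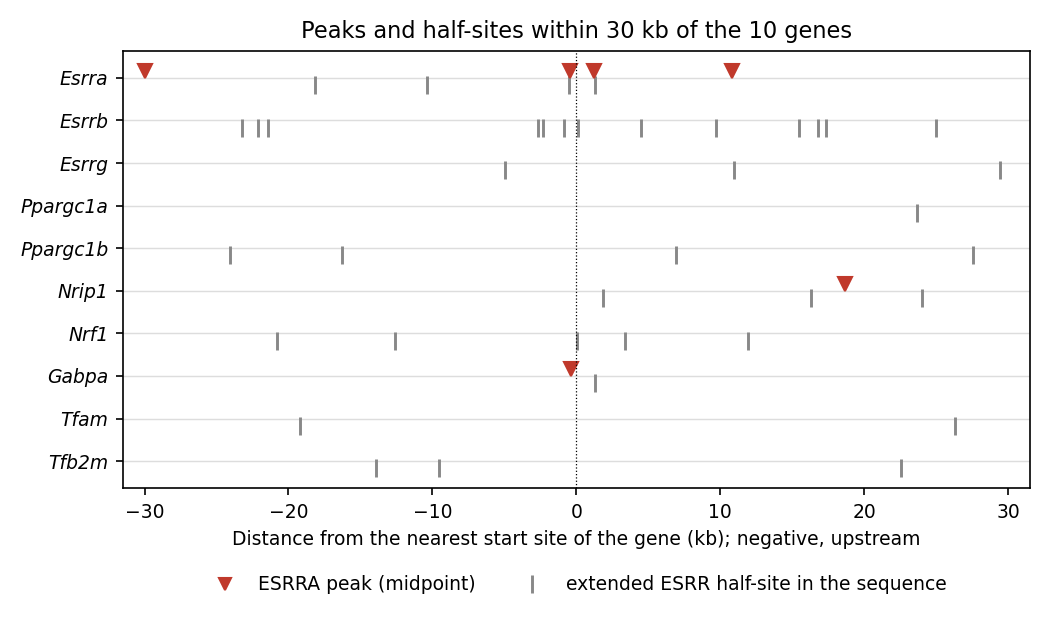
Position of ESRRA peak midpoints (red triangles) and of extended ESRR half-sites in the genome sequence (grey ticks) around each of the 10 genes, in kb from the gene's nearest start site, with negative values upstream. Of the 6 peaks, 4 are at Esrra, and of the 39 half-sites 2 fall in a peak, both at Esrra.

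Esrra, the gene of the immunoprecipitated receptor itself, carried the largest number of peaks of the 10 genes. It has 4 peaks within 30 kb, a count that 81 protein-coding genes, or 0.362%, reached or passed. Its neighbours 1700019N12Rik and Kcnk4 also had 4 peaks of this locus within 30 kb, so the count is not particular to Esrra there. Among genes with any peak the median number was 1, and 76.5% had exactly 1. The highest number for a gene was 21. Within 10 kb, or when each peak was counted only for the protein-coding gene with the nearest start, Esrra kept 2 of its 4 peaks. The 4 peaks belong to a run of 5 peaks with no gap above 30 kb, which spanned 70683 bp between the outermost midpoints. In coordinate order the gaps were 9565, 2406, 29527 and 29185 bp, so the larger ones fell just under the limit. The neighbouring peaks on chromosome 19 lay 715 kb before the run and 237 kb after it. Over the whole list there were 1242 such runs, of which 199 held 2 or more peaks and 22 held 5 or more. All 5 peaks lay in single-copy sequence, meaning that the median 24-base word of each occurs at most 10 times in the genome.

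The peak closest to an Esrra start, at chr19:6996424-6997024, had its midpoint 421 bp upstream of the most upstream start and between annotated genes. It held 2 cores on the same strand, opposite to Esrra. One of them is a full TCAAGGTCA at chr19:6996827-6996835, centred 107 bp from the midpoint and 528 bp upstream of the start, and the other is part of TGAAGGTCA at chr19:6996850-6996858. The start of one half-site is 23 bp from the start of the other. The 2 units of 23 bases that begin with these half-sites share 13 of 23 bases, and are shown on the plus strand with the 9 bases of the half-site in capitals.
Unit with TCAAGGTCA: TCAAGGTCActgcggtgaccgaa
Unit with TGAAGGTCA: TGAAGGTCAcggggaaaggcggg
The 23-base units directly before and after this pair shared 6 and 10 bases with the unit with TCAAGGTCA. Their closest match to TCAAGGTCA anywhere in the unit differed at 5 and 4 of the 9 letters. Among single-copy peaks 117, or 8.90%, held 2 cores on the same strand, and 2 peaks in the list, this one included, held them at a spacing of 23 bp. Nearby spacings were as rare, with 2 pairs each at 21, 22 and 25 bp and 1 at 24 bp, while 10 pairs stood at 20 bp. In any orientation, 157 single-copy peaks (11.9%) held 2 or more cores, a count that includes the 117.

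The intronic peak of Esrra, at chr19:6994018-6994618, had its midpoint 1223 bp downstream of the nearest Esrra start and 1980 bp downstream of the start of the transcript Esrra-001, in intron 2 of its 6 introns. It held 1 TCAAGGTCA, at chr19:6994231-6994239 on the strand of the gene, centred 83 bp from the midpoint. Both peaks thus carried the extended half-site, one on each strand relative to Esrra. The intronic peak held 1 CpG and had a GC content of 50.9%, while the promoter peak held 33 CpG and had a GC content of 56.2%. The median GC content of single-copy peaks was 50.4%.

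The other peaks of the run each had a midpoint within 1 kb of an annotated transcript start of another gene. Downstream of Esrra, the peak at chr19:6984453-6985053 had its midpoint 10788 bp from an Esrra start, 99 bp from a start of Trmt112, which encodes a partner of methyltransferases, and 157 bp from a start of Prdx5, which encodes an antioxidant peroxiredoxin. Upstream, the peak at chr19:7025951-7026551 lay 994 bp from a start of Bad, a regulator of cell death, in a noncoding part of a Bad exon. That start is internal to Bad, which spans chr19:7016351-7026388 on the plus strand, and the peak overlaps the 3′ end of the gene. The midpoint of this peak was 29948 bp from Esrra, only 52 bases inside the limit of 30 kb. These 2 peaks held no AAGGTCA on either strand, and their closest match to TCAAGGTCA differed at 3 of the 9 letters, which was so for 5.02% of single-copy peaks. They held the ETS core CCGGAAG 3 and 2 times, the sequence bound by GABPA and other ETS factors, and the GC box GGGCGG 4 times and 1 time.

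The fifth peak of the run, at chr19:7055136-7055736, lay 59133 bp upstream of Esrra and so outside the rule. It stood 506 bp upstream of Fkbp2, which encodes a peptidyl-prolyl isomerase of the endoplasmic reticulum, and held a TCAAGGTCA at chr19:7055308-7055316. Thus 3 of the 5 peaks in the run held the extended half-site and 2 held no core. In all, 14 protein-coding genes had a start within 30 kb of a peak of the run, and 5 of them had one within 1 kb: Prdx5, Trmt112, Esrra, Bad and Fkbp2. The others were 1700019N12Rik, Kcnk4, Gpr137, Plcb3, Ppp1r14b, Vegfb, Dnajc4, Nudt22 and Trpt1. The position of a peak does not say which of these genes it acts on.

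**Figure D2:**
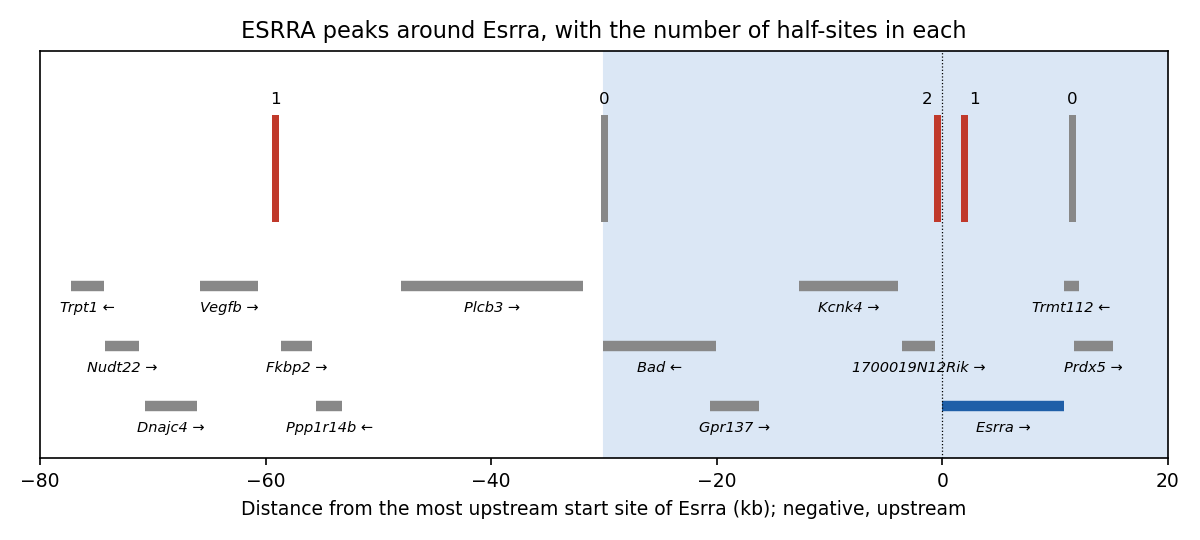
The run of 5 ESRRA peaks (upper bars, red where the peak holds an ESRR half-site core and grey where it does not, with the number of cores above each) and the 14 protein-coding genes with a start near it (lower bars, Esrra in blue, arrows giving the direction of transcription), in kb from the most upstream Esrra start. Shading marks the 30 kb on each side of that start, and the peaks with cores are the 2 next to the Esrra start and the outermost one, which lies beyond the shading.

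Peaks near the partners of the receptor were looked up next, beginning with the coactivators. Positions alone do not show whether ESRRA feeds back on these genes. Neither Ppargc1a nor Ppargc1b, which encode the PGC-1 coactivators, had a peak within 30 kb, nor within 100 kb, and none lay in either gene body. The nearest peak to Ppargc1a, at chr5:51797784-51798384, was 147 kb downstream of its nearest start and past the end of the gene, and held no core. Of all annotated starts, that of Ppargc1a was the closest to this peak. The nearest peak to Ppargc1b, at chr18:61453459-61454059, was 106 kb downstream of its nearest start. This peak also lay past the end of the gene but close to it, as Ppargc1b spans chr18:61457790-61560085 on the minus strand. It was single-copy, held 2 cores, and was closest to a start of Pde6a. The lack of a peak in the list does not show that ESRRA is absent, since a peak below the authors' threshold would not be listed.

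Nrip1, whose product RIP140 represses receptors of this family, had 1 peak. It lay at chr16:76354325-76354925, 18657 bp downstream of the nearest start and in intron 1 of the 3 introns of Nrip1-001. It held 2 cores on opposite strands, centred 118 bp before and 16 bp after the midpoint, and no TCAAGGTCA, with 1 mismatch at best. At 39.1% its GC content was the lowest of the 6 peaks. The 2 cores are those printed above for the Nrip1 intron.

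Gabpa, the DNA-binding subunit of the ETS factor GABP, had 1 peak at chr16:84834526-84835126, with its midpoint 344 bp upstream of a Gabpa start. The start of Atp5j, which encodes a subunit of ATP synthase and is read in the other direction, was nearer, 251 bp from the midpoint, and the midpoint fell in a noncoding exon of Atp5j. The peak therefore cannot be assigned to one gene of this divergent pair by position. It held 1 core, 69 bp from the midpoint, with no TCAAGGTCA and 1 mismatch at best, and 1 CCGGAAG.

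The remaining 5 genes had no peak within 30 kb. Nrf1, which encodes an activator of respiratory chain genes, had its nearest peak 300 kb away, and that peak was multi-copy with a median of 62 copies per 24-base word. Tfam and Tfb2m, the factors of mitochondrial DNA transcription, had theirs 106 kb and 110 kb upstream, the latter also multi-copy at 80.5. Esrrb and Esrrg, the paralogs of Esrra, were farthest, at 882 kb and 2293 kb. Over the 7 genes without a peak the median distance to the nearest peak was 147 kb, and over all protein-coding genes it was 448 kb.

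In the 6 peaks within 30 kb of the 10 genes, 4 held AAGGTCA, against 721 of all 1639 peaks, or 44.0% (Wilson interval 41.6 to 46.4%), and 51.4% of the 1315 single-copy peaks. TCAAGGTCA was in 2 of the 6, against 14.3% (12.7 to 16.1%) of all peaks and 17.7% of single-copy peaks. In windows of the same width 2 kb to each side of single-copy peaks, 12.8% held AAGGTCA, while 4 of the 10 such windows beside the 6 peaks did. Windows of the same width centred on start sites of protein-coding genes held it in 8.35%. A control with the letters of the core in reverse order, ACTGGAA, was in 0 of the 6 peaks and in 10.4% of all peaks. Among the other sequences searched on both strands, CCGGAAG was in 3 of the 6 and in 8.05% of all peaks, and in 14.7% of windows centred on start sites. GGGCGG was in 3 of the 6, in 23.2% of all peaks and in 50.5% of start-site windows. The NRF1 core CGCATGCG, the cAMP response element TGACGTCA and the HNF4 core CAAAGTCCA were in 0 of the 6 and in 0.610, 1.16 and 2.56% of all peaks. AAGGTCA contains the hexamer AGGTCA, and TCAAGGTCA contains AAGGTCA, so these counts overlap.

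**Figure D3:**
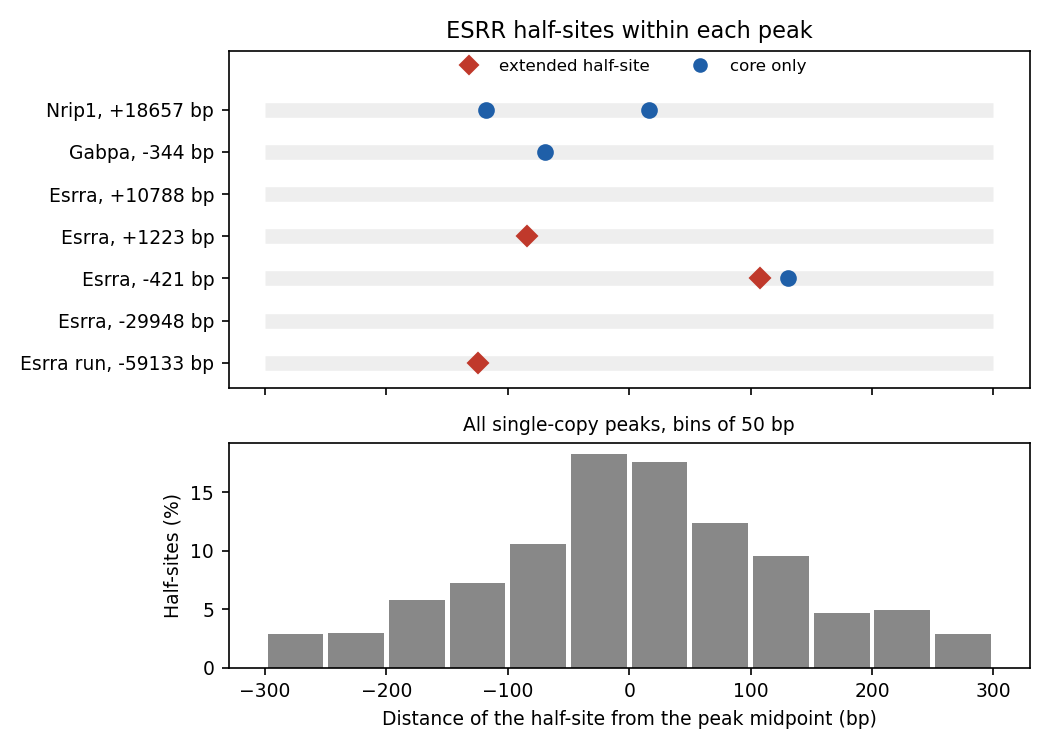
Upper panel, position of ESRR cores in the 6 peaks near the 10 genes and in the fifth peak of the Esrra run, in bp from the peak midpoint (diamonds, core within TCAAGGTCA; circles, core alone). Lower panel, percent of all cores in single-copy peaks by 50-bp bin, with the 2 central bins at 18.3 and 17.6%. The cores of the peaks shown lie between 16 and 131 bp from the midpoint.

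In the single-copy peaks that held a core, the nearest one lay a median of 60.5 bp from the midpoint. For the peaks shown it lay at 16 bp for Nrip1, 69 bp for Gabpa, 84 bp for the Esrra intron and 108 bp for the Esrra promoter, and at 125 bp for the peak at Fkbp2. Of these, only that of Nrip1 was nearer to the midpoint than the median.

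The half-site was also sought without regard to peaks. TCAAGGTCA occurred 56617 times on the 21 chromosomes, and 316 of these (0.558%) lay in a peak. All 10 genes had at least 1 within 30 kb of a start, as did 80.3% of protein-coding genes. Of 39 such sites near the 10 genes, 2 lay in a peak, both at Esrra. Esrrb had the most, 13 sites, and also the widest window, 203 kb, while Ppargc1a and Gabpa had 1 each. Sites close to a start but outside any peak are printed here with 10 bases on each side, to set beside those under peaks. That of Nrf1, at chr6:30047791-30047799, was centred 12 bp from a start, that of Esrrb at chr12:87845469-87845477 was 114 bp, that of Gabpa at chr16:84836629-84836637 was 1264 bp and that of Nrip1 at chr16:76322014-76322022 was 1885 bp.
Nrf1 site, no peak: ttaagtcaggTCAAGGTCAtcagagccga
Esrrb site, no peak: gatccaaagtTCAAGGTCAgttttggagg
Gabpa site, no peak: catagcaagtTCAAGGTCAgccaggctag
Nrip1 site, no peak: ctgatgcagcTCAAGGTCActctaacccg
Each of these 4 holds the same 9 letters as the 2 sites under the Esrra peaks. Counting each site together with the 7 bases before or after it, whichever was the more frequent in the genome, the 2 sites in peaks occurred 21 and 13 times. Of the 37 sites near the 10 genes outside peaks, 15 (40.5%) occurred more than 50 times, up to 1014. The same held for 35.8% of all sites on the chromosomes and for 66 of the 315 in single-copy peaks. The Gabpa site occurred 152 times, the Esrrb site 77 times, and the Nrf1 and Nrip1 sites 9 and 5 times. Thus the Nrf1 site, 12 bp from a start, was no more repeated than those under the Esrra peaks, and no peak was listed there. That start, 1 of 17 annotated for Nrf1, is internal to the gene, which spans chr6:29997988-30103458 on the plus strand. The site lies in a noncoding exon and is not placed like the Esrra promoter site, which is upstream of the gene. The starts nearest the Esrrb and Nrip1 sites are likewise internal to their genes.

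RefSeq promoters (GRCm38.p6, 250 bases before to 50 after each start) were matched by symbol for 9 of the 10 genes, 15 promoters in all, and Ppargc1b was not matched. None of the 15 held AAGGTCA, which was in 4.72% of the 32851 promoters of the table, and the 1 promoter of Esrra there held none. These windows reach only 250 bases upstream. The cores described above were centred 529 and 552 bp upstream of a GENCODE start at Esrra and 413 bp at Gabpa, too far for such a window. At a share of 4.72%, finding none among 15 is not informative.

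Around the 10 genes, a list of 39 other genes of the same pathway was examined: coregulators of the receptors, partners of GABP and NRF1, factors of mitochondrial DNA transcription and replication, and upstream signals. A peak lay within 30 kb of 3 of the 39 (7.69%), close to the 8.75% of all protein-coding genes, and within 1 kb of 2 (5.13%), where the share of all protein-coding genes was 2.08%. By group this was 1 of 13 coregulators, 0 of 3 partners, 1 of 8 transcription factors of mitochondrial DNA, 0 of 7 replication factors and 1 of 8 upstream regulators. Nr0b2, which encodes the corepressor SHP, had a peak at chr4:133108676-133109276, with its midpoint 315 bp upstream of its start and no core. Nfe2l2, the regulator of the oxidative stress response, had 2 peaks. One lay 594 bp downstream of a start without a core, and the other, in an intron 7069 bp downstream at chr2:75535177-75535777, held TCAAGGTCA. The peak counted for Mterf3, annotated as Mterfd1 and known as a repressor of mitochondrial transcription, was 11410 bp from its start but only 157 bp from a start of Uqcrb, a subunit of complex III.

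**Figure D4:**
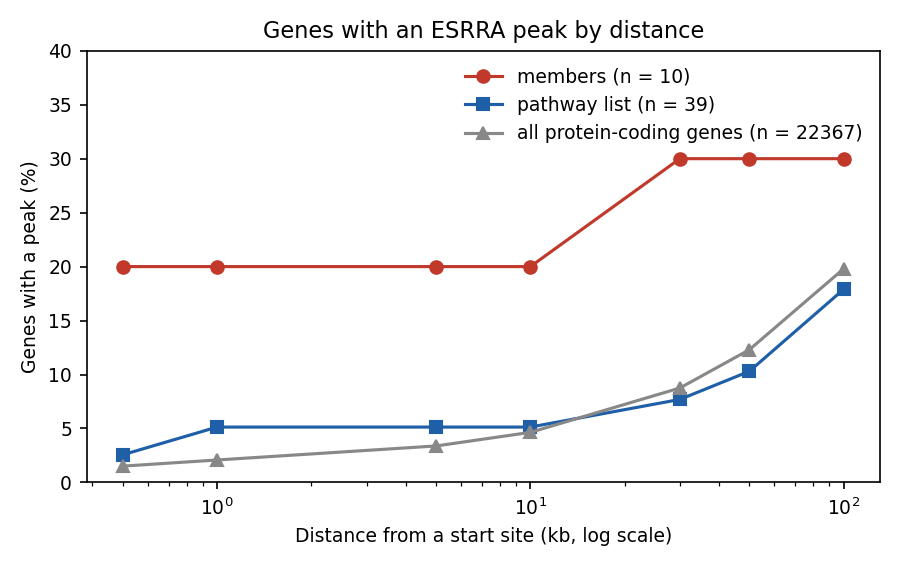
Percent of genes with an ESRRA peak within a given distance of a start site, on a log axis in kb, for the 10 genes, the 39 pathway genes and all 22367 protein-coding genes. The 10 genes stay at 20.0% up to 10 kb and at 30.0% from 30 to 100 kb, while the pathway list is at 5.13% against 2.08% of all genes at 1 kb, and at 7.69% against 8.75% at 30 kb.

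Marker genes of cell types were looked up by position only, since peaks do not measure expression. The lists were chosen with earlier results of these data known, so the counts do not check the cell type on the label. All 8 enterocyte markers, Vil1, Sis, Apoa1, Apoa4, Fabp1, Fabp2, Alpi and Lct, had a peak within 30 kb. Of 21 markers of goblet, enteroendocrine, Paneth, crypt stem, immune, endothelial and stromal cells, 1 did, the goblet gene Fcgbp. With 8.75% of all protein-coding genes having such a peak, this count does not show whether those cell types were present.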

How the data were processed

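ESRRA ChIP-seq was performed by the authors on adult WT duodenal villus cells, cross-linked with DSG and formaldehyde, in 2 ChIP libraries and 1 input library, grouped by title. Paired-end reads were aligned to mm9, the ChIP libraries were merged, and peaks were called with MACS2 at a p-value of 1e-05. The submitters' processing notes name FastQC 0.11.3, Bowtie2 2.2.6, SAMtools 0.1.19 and deepTools 2.4.2. The file deposited by the authors gave positions (bp) of both ends of every peak and no score, called on merged libraries, so replicates could not be compared and depth per sample could not be read from it. How every peak came to be 601 bp wide is not given in the sources used here. Merging hides peaks of one library alone, and peaks just past the threshold count like strong ones.

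Coordinates are mm9, counted from 1, with GENCODE M1 starts. Peak midpoints were measured from every annotated start of a gene. A peak was multi-copy where its median 24-base word occurred more than 10 times in the genome. Motifs were matched exactly on both strands. Wilson intervals are at the 95% level. No test was run, because both ChIP replicates were merged into 1 list and because the members and lists were chosen with earlier results of these data known. Genes named are the 10 members, those near the Esrra run, pathway genes with a peak and 5 genes whose peaks most resemble those of Esrra: at least as many peaks within 30 kb and one within 1 kb, ordered by the number of cores. The copies of half-sites with their neighbours, and marker genes, are descriptions, the former added after the sites were seen. Functions were tested on simulated data. Python 3.11.15, numpy 2.4.6, scipy 1.17.1, numba 0.67.0 and matplotlib 3.10.9 were used.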

Additional observations from a re-analysis of the deposited data

How the results depend on the processing

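Of 49 alternative settings computed, 35 stayed within the limits set for the same value and 14 moved. The number of the 10 genes with a peak was labelled the same at 10 kb and by the nearest gene, although each gave 2 instead of 3. At 10 kb the peaks near the 10 genes fell from 6 to 3, with Esrra at 2 instead of 4 and Nrip1 without a peak. Counting each peak only for the protein-coding gene with the nearest start also gave 3, with Esrra again at 2 and Gabpa losing its peak to Atp5j. Pathway genes with a peak were 7 at 100 kb. The share of protein-coding genes with a peak within 30 kb was 4.64% at 10 kb, 12.3% at 50 kb, 19.8% at 100 kb, 8.32% from protein-coding transcripts only, 8.19% without multi-copy peaks and 4.38% by the nearest gene. Within 1 kb it was 1.51% at 500 bp and 3.38% at 5 kb. Peaks with the half-site were 2 for TCAAGGTCA and 2 for TNAAGGTCA, and the Esrra run held 3 peaks with gaps of at most 10 kb. The cause of these changes is the construction of each setting. A stricter p-value and leaving out each ChIP replicate were not run, because the list used here gives no scores and no peaks per library. No paired analysis was possible because only 1 merged list was analysed. With no heights, a weak peak cannot be told from a strong one, and a missing peak does not show absence of binding.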

Other observations

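Other genes shared the pattern of peaks seen at Esrra. Besides Esrra, 80 protein-coding genes had 4 or more peaks within 30 kb, and 43 of them also had a peak within 1 kb of a start. Of these, 11 had at least as many cores in their peaks as Esrra, which had 3. The 5 first in that order were Gm16253, Mgam and Txnip with 5 cores each, and Apoa1 and Armc7 with 4. Mgam encodes a brush-border glucosidase, Apoa1 the major apolipoprotein of high-density lipoprotein, and Txnip an inhibitor of thioredoxin. Plac8, Rbp2, Slc16a5 and Slc43a2 also had 4 cores and were left out by the limit of 5 names. Gm16253 and Txnip are neighbours on chromosome 3, so their counts can come from the same peaks. Mgam had 7 peaks, Apoa1 had 6 and Armc7 had 5. Likeness here is a count of peaks and cores in 1 list.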
